A study of Mus musculus with 8 samples.

Results

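Efferocytosis, the uptake of apoptotic cells, was examined through the expression of 10 genes that encode its receptors and bridging molecules: the TAM receptor tyrosine kinases Mertk, Axl and Tyro3, their ligands Gas6 and Pros1, the integrin bridge Mfge8, the receptors Stab1, Cd36 and Lrp1, and the matrix protein Thbs1. The genes were chosen by name among the 54532 genes of the count table, each matched 1 row, and all 10 were among the 15963 genes with enough counts to be tested. RNA was measured in bulk in the stromal vascular fraction (SVF) of gonadal white adipose tissue (WAT), the cell pellet left when the buoyant adipocytes of a collagenase-digested fat pad are set aside. All mice were male C57BL/6J animals fed a high-fat diet (HFD, 60% of calories from fat). Their starting age was taken as 6 weeks, which the paper states for its mice kept on the HFD. For mice later changed to chow it states none, and its methods name older mice. The HFD lasted 12 weeks, and the mice then changed to normal chow (16% of calories from fat). From that change until week 18, both groups received 2 mg/kg of antibody every 2 weeks for 6 weeks, either the anti-BAFF antibody Sandy-2 (anti-BAFF Ab; mice 5, 7, 8 and 10) or an IgG1k isotype control (control Ab; mice 1, 2, 6 and 9). BAFF is a survival factor of B cells, and the comparison asks how its neutralization during the diet change affected the fat stroma. One library per mouse was sequenced, and no mouse without antibody and no mouse kept on the HFD was analysed here.

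Dying cells expose phosphatidylserine, a lipid that healthy cells keep on the inner face of their membrane. Gas6 and protein S (Pros1) bind this lipid with one end and a TAM receptor with the other, while MFG-E8 (Mfge8) links it to integrins, and stabilin-1 (Stab1) and CD36 recognise altered membranes directly. LRP1 takes part in uptake as a partner of calreticulin, and thrombospondin-1 (Thbs1) can bridge dying cells to CD36. In obese WAT, macrophages gather around dead adipocytes in crown-like structures and take up their remains.

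Total counts ranged from 13562340 to 18548024 per mouse. Levels are given as counts per kilobase of gene length and per unit of library size (FPKM, scaled to TMM library sizes), so that they can be compared between genes, and means are followed by the SD over the 4 mice of a group, control Ab first. In the shallowest library a limit of 3 counts equals 0.221 CPM, which covers counting error only. The fraction held macrophage markers (8 genes, summed level 7235 to 11988 CPM with control Ab and 8322 to 9692 CPM with anti-BAFF Ab), fibroblast and preadipocyte markers (12107 to 15348 and 12888 to 15351 CPM) and endothelial markers (981 to 1783 and 1108 to 1780 CPM). Markers of mature adipocytes summed to 137 to 174 CPM in all mice. Markers of B cells, the cells that depend on BAFF, summed to 41.1 to 47.3 CPM with control Ab and to 12.4 to 25.8 CPM with anti-BAFF Ab. Libraries that stood apart were anti-BAFF Ab-treated mouse 5 for neutrophil markers (278 CPM against at most 88.9 CPM in the other 7 mice) and control Ab-treated mouse 2 and anti-BAFF Ab-treated mouse 7 for epididymis markers (1668 and 1707 CPM against 17.1 to 674 CPM in the other 6 mice).

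No member gene passed the test between the groups: with edgeR's quasi-likelihood model, 0 of 10 had an adjusted p under 0.05 and 0 of 10 an unadjusted p under 0.05. Over all genes tested, 0.0564% passed the adjusted threshold, each of them with a lower mean under anti-BAFF Ab, and 1.9% passed unadjusted. DESeq2 called 0 of the 10 genes, and 0 unadjusted, where it called 0.229% of all genes with counts. The 4 values per group overlapped for each of the 10 genes, as they did for most genes tested, of which 1.48% had groups without overlap. The log2 fold changes, anti-BAFF Ab over control Ab, were above 0 for 7 genes and below 0 for 3, with a median of 0.07 (0.004 over all genes tested). For 8 of the 10 genes the 95% interval lay within a 1.5-fold change in either direction, and for all 10 it lay within a 2-fold change. With 4 mice per group, differences within these intervals remain compatible with the data.

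**Figure D1:**
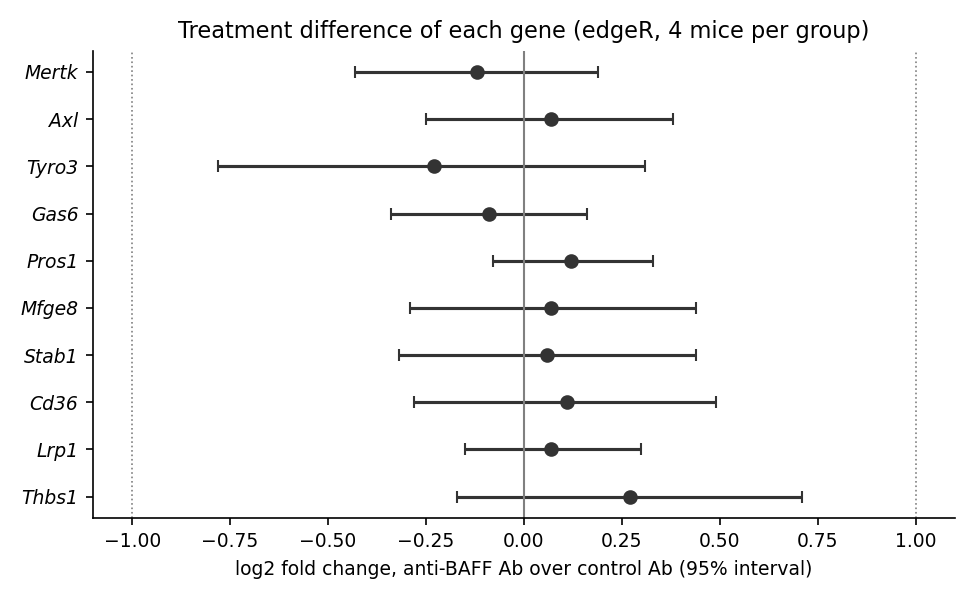
Log2 fold change of each gene, anti-BAFF Ab over control Ab, with its 95% interval from edgeR (4 mice per group); the dotted lines mark a log2 fold change of 1 in each direction. All 10 intervals include 0 and stay inside the dotted lines, and the widest is that of Tyro3, from -0.78 to 0.31.

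The level of the 10 genes spanned a far wider range between genes than between mice. In order of mean FPKM over the 8 mice they were Cd36 (825), Thbs1 (380.2), Lrp1 (253.7), Gas6 (208), Mfge8 (126), Axl (117), Stab1 (74.9), Pros1 (58.1), Mertk (16.9) and Tyro3 (0.756). Cd36 was above Thbs1 in 8 of 8 mice, Gas6 above Mfge8 in 8 of 8, Pros1 above Mertk in 8 of 8 and Mertk above Tyro3 in 8 of 8, and these 4 pairs of neighbours had ranges that did not overlap. The other 5 pairs of neighbours in this order had overlapping ranges, and the closest were Mfge8 and Axl, with Mfge8 the higher in 6 of 8 mice. The highest mouse exceeded the lowest by 1.17-fold for Lrp1, the steadiest gene, and by 2.06-fold for Tyro3 and 1.98-fold for Thbs1, the most variable. The median coefficient of variation within groups was 16.1% for the 10 genes and 16.4% for all genes tested.

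**Figure D2:**
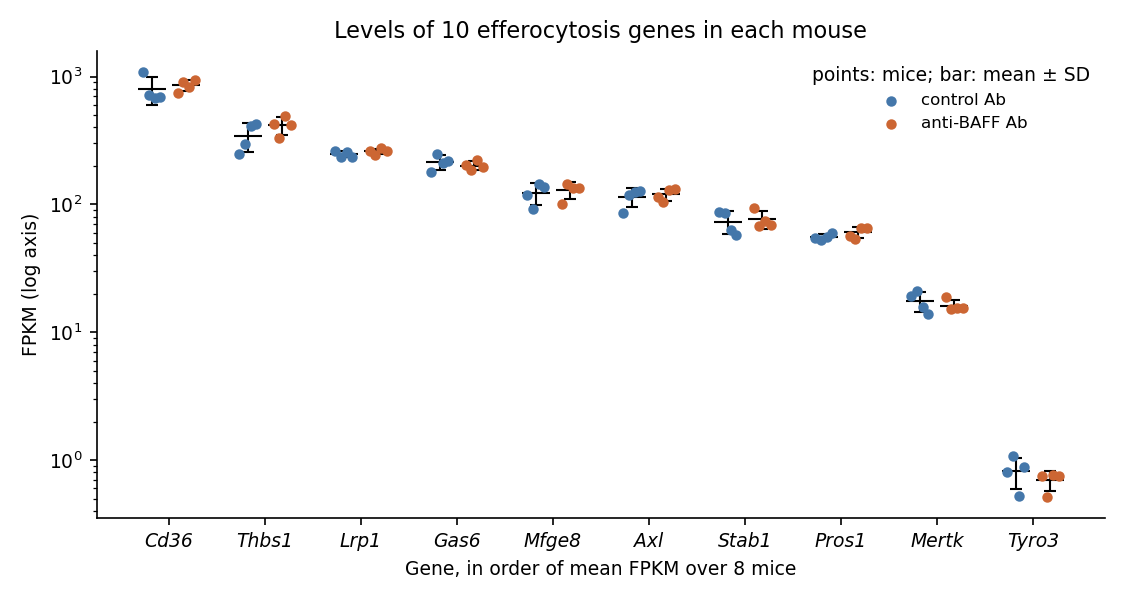
FPKM of the 10 genes (log axis) in each mouse, with control Ab-treated mice in blue, anti-BAFF Ab-treated mice in orange, and bars for the mean ± SD of 4 mice. The points of both colours overlap for every gene, while the mean level spans from 0.756 for Tyro3 to 825 for Cd36.

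Mertk (ENSMUSG00000014361, chromosome 2, 128698956 to 128802894, plus strand) encodes the TAM receptor best known for apoptotic cell uptake by resident macrophages. Its level was 19.2, 21.1, 15.8 and 14.0 FPKM in control Ab-treated mice 1, 2, 6 and 9 and 18.8, 15.1, 15.4 and 15.4 FPKM in anti-BAFF Ab-treated mice 5, 7, 8 and 10. High and low mice thus occurred in both groups, and the means were 17.6 ± 3.22 and 16.2 ± 1.77 FPKM. The log2 fold change was -0.12 (standard error 0.14, 95% interval -0.43 to 0.19, edgeR adjusted p = 1.0). Without control Ab-treated mouse 2 and anti-BAFF Ab-treated mouse 7, the libraries with the highest epididymis markers, it was -0.0023.

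Axl (chromosome 7, 25757273 to 25788705, minus strand) encodes a TAM receptor that is also found on fibroblasts and endothelial cells. It stood at 86.2, 119, 125 and 127 FPKM in control Ab-treated mice 1, 2, 6 and 9 and at 113.5, 104, 129.6 and 132 FPKM in anti-BAFF Ab-treated mice 5, 7, 8 and 10. Control Ab-treated mouse 1 was the lowest of the 8 mice, and the other 7 mice lay between 104 and 132 FPKM. The log2 fold change was 0.07 (standard error 0.14, 95% interval -0.25 to 0.38) and turned to -0.06 without mouse 1. Tyro3 (chromosome 2, 119797733 to 119818104, plus strand), the TAM receptor that is prominent in the nervous system, had 44 to 112 counts per mouse. It ranged from 0.519 to 1.07 FPKM with control Ab and from 0.518 to 0.769 FPKM with anti-BAFF Ab, and its log2 fold change was -0.23 (95% interval -0.78 to 0.31; 0.02 without mice 2 and 7).

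The shares of the 3 TAM receptors overlapped between the groups, and no test was run on them. Axl supplied 85.8 ± 3.86% of their summed FPKM for control Ab and 87.6 ± 1.8% for anti-BAFF Ab, Mertk 13.5 ± 3.73% and 11.9 ± 1.79%, and Tyro3 0.625 ± 0.183% and 0.507 ± 0.0554%. The Axl level was from 4.48 times (control Ab-treated mouse 1) to 9.02 times (control Ab-treated mouse 9) that of Mertk per length, so the extremes of this ratio both came from control Ab-treated mice. The summed TAM receptor level was 106 FPKM in control Ab-treated mouse 1 and between 119.8 and 147.8 FPKM in the other 7 mice.

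Gas6 (chromosome 8, 13465374 to 13494490, minus strand) encodes the ligand that binds all TAM receptors. Its level was 179.7, 247, 211 and 220.2 FPKM in control Ab-treated mice 1, 2, 6 and 9 and 203.5, 184, 220.9 and 196.7 FPKM in anti-BAFF Ab-treated mice 5, 7, 8 and 10. The lowest and the highest mouse were both in the control Ab group. The log2 fold change was -0.09 (standard error 0.11, 95% interval -0.34 to 0.16), and it was 0.0034 without mice 2 and 7. Pros1 (chromosome 16, 62854307 to 62929346, plus strand), whose product protein S is a plasma anticoagulant and a ligand of Mertk and Tyro3, ranged from 52.6 to 59.5 FPKM with control Ab and from 54.0 to 65.9 FPKM with anti-BAFF Ab. Its log2 fold change was 0.12 (standard error 0.09, 95% interval -0.08 to 0.33), and its edgeR unadjusted p of 0.202 was the lowest of the 10 genes. Anti-BAFF Ab-treated mice 8 and 10 were above every control Ab-treated mouse, and mice 5 and 7 were within the control Ab range. Gas6 exceeded Pros1 per length by 3.27 to 4.7 times with control Ab and by 2.98 to 3.56 times with anti-BAFF Ab. Summed, the ligands were at 1.89 to 2.21 times the summed TAM receptors with control Ab and at 1.78 to 1.99 times with anti-BAFF Ab.

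Mfge8 (chromosome 7, 79133768 to 79149060, minus strand) encodes a secreted protein that joins phosphatidylserine to integrins on the phagocyte. It was at 118, 92.1, 144 and 138 FPKM in control Ab-treated mice 1, 2, 6 and 9 and at 101.5, 145, 135 and 135 FPKM in anti-BAFF Ab-treated mice 5, 7, 8 and 10. Mouse 2 of the control Ab group and mouse 5 of the anti-BAFF Ab group were lowest, and the means were 123 ± 23.2 and 129 ± 19.2 FPKM. The log2 fold change was 0.07 (standard error 0.16, 95% interval -0.29 to 0.44), and it was -0.12 without mice 2 and 7 and -0.04 without mouse 2 and -0.003 without mouse 7 alone. Thbs1 (chromosome 2, 118111876 to 118127133, plus strand), a matricellular protein that platelets also store, was at 247.5, 296, 409.7 and 427 FPKM in control Ab-treated mice 1, 2, 6 and 9 and 424, 333, 489.7 and 414 FPKM in anti-BAFF Ab-treated mice 5, 7, 8 and 10. Control Ab-treated mice 1 and 2 were the lowest, while mice 6 and 9 were within the anti-BAFF Ab range. Its log2 fold change of 0.27 (standard error 0.20, 95% interval -0.17 to 0.71, unadjusted p = 0.205 and edgeR adjusted p = 1.0) became 0.12 without control Ab-treated mouse 1 and 0.39 without mouse 9. Platelet markers (6 genes) summed to 132 to 167 CPM with control Ab and to 121 to 189 CPM with anti-BAFF Ab, and their part in the Thbs1 values was not tested.

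Stab1 (chromosome 14, 31139013 to 31168641, minus strand) encodes a phosphatidylserine receptor of alternatively activated macrophages and sinusoidal endothelium. It was at 86.8, 85.9, 62.7 and 58.1 FPKM in control Ab-treated mice 1, 2, 6 and 9 and at 94.5, 68.1, 74.3 and 69.1 FPKM in anti-BAFF Ab-treated mice 5, 7, 8 and 10. The highest mouse was thus in the anti-BAFF Ab group and the lowest in the control Ab group, and the log2 fold change was 0.06 (standard error 0.17, 95% interval -0.32 to 0.44). It was below 0 when control Ab-treated mouse 6 (-0.01) or 9 (-0.04) or anti-BAFF Ab-treated mouse 5 (-0.07) was left out. Counts on Nt5dc2, which overlaps Stab1 on the opposite strand, were at most 4.19% of those on Stab1, and whether the counting used strand is not given in the sources used here. Cd36 (chromosome 5, 17781690 to 17888801, minus strand), a fatty acid transporter and scavenger receptor of macrophages, endothelium and adipocytes, was the most abundant of the 10 genes. It was at 1086 FPKM in control Ab-treated mouse 1 and at 715, 685 and 693 FPKM in mice 2, 6 and 9, against 745, 905, 827 and 943 FPKM in anti-BAFF Ab-treated mice 5, 7, 8 and 10. Mouse 1 was above all other mice, and the other 3 control Ab-treated mice were below all anti-BAFF Ab-treated mice. The log2 fold change was 0.11 (standard error 0.17, 95% interval -0.28 to 0.49, edgeR adjusted p = 1.0). Without mouse 1 it was 0.28 (unadjusted p = 0.0192, edgeR adjusted p = 0.398), the only case of the 10 genes in which leaving out 1 mouse gave an unadjusted p under 0.05. Lrp1 (chromosome 10, 127538161 to 127621148, minus strand), a large endocytic receptor, ranged from 235.5 to 260.1 FPKM with control Ab and from 243.8 to 276 FPKM with anti-BAFF Ab. Its log2 fold change was 0.07 (standard error 0.10, 95% interval -0.15 to 0.30).

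Within the groups, the genes followed distinct patterns from mouse to mouse. Stab1 and Mertk were highest, and Mfge8 was lowest, in the same 3 mice: control Ab-treated mice 1 and 2 and anti-BAFF Ab-treated mouse 5. The Mertk level stayed between 0.199 and 0.252 times the Stab1 level per length in all 8 mice. The ratio was 0.222 to 0.252 with control Ab and 0.199 to 0.223 with anti-BAFF Ab. Control Ab-treated mouse 1 was lowest for Axl (0.43 below the gene mean on the log2 scale), Gas6 (0.20 below) and Thbs1 (0.59 below) and highest for Cd36 (0.41 above), while its Lrp1 level was 0.04 above the mean.

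**Figure D3:**
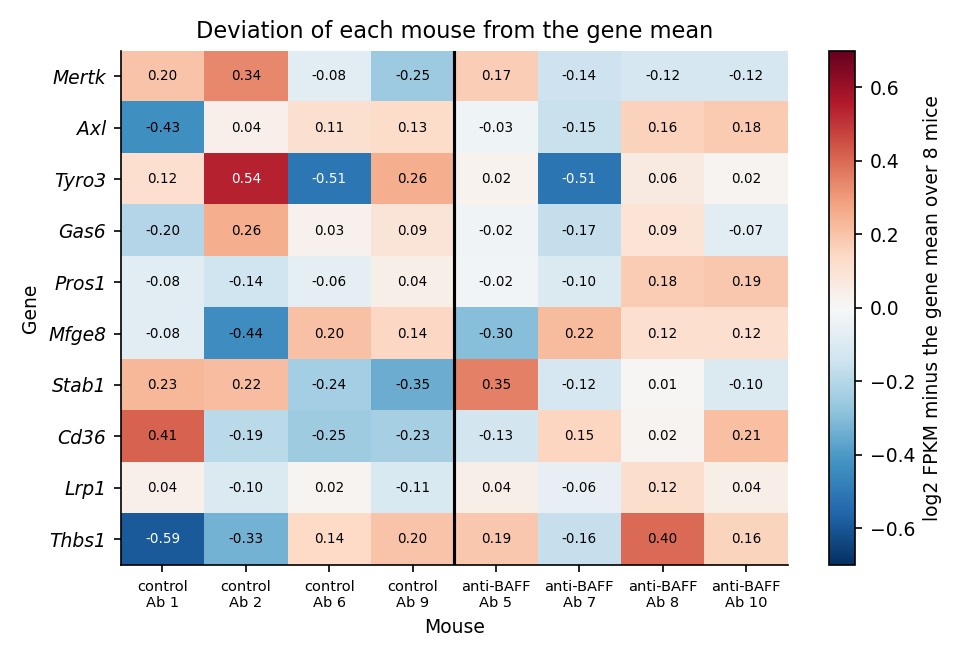
Log2 FPKM of each gene (rows) in each mouse (columns) minus the gene mean over the 8 mice, with red above and blue below the mean and a vertical line between the groups. Stab1 and Mertk are red and Mfge8 is blue in control Ab mice 1 and 2 and anti-BAFF Ab mouse 5. The column of control Ab mouse 1 holds the lowest values of Axl, Gas6 and Thbs1 and the highest of Cd36.

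The promoter sequences of Mertk, Stab1 and Mfge8 are shown because these genes had the shared mouse pattern in the same and the opposite direction. Each is the 250 bases before the transcription start in RefSeq's GRCm38.p6 annotation, 5′ to 3′ on the gene's strand: Mertk at chr2:128698665-128698914 (plus strand), Stab1 at chr14:31168642-31168891 (minus strand) and Mfge8 at chr7:79149061-79149310 (minus strand). Capitals mark GGGCGG, the GC box, and GAGGAA, a sequence that ETS family factors such as PU.1 can bind, on either strand. On the opposite strand they read CCGCCC and TTCCTC.
Mertk: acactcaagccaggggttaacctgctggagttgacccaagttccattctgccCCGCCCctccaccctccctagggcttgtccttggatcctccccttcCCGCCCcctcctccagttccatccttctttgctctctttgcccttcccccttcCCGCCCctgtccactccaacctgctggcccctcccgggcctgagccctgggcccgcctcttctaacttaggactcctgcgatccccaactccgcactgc
Stab1: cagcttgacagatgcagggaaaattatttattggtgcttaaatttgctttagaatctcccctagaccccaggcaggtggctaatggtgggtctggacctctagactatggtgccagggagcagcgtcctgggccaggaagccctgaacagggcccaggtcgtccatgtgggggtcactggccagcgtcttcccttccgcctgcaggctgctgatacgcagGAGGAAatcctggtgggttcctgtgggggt
Mfge8: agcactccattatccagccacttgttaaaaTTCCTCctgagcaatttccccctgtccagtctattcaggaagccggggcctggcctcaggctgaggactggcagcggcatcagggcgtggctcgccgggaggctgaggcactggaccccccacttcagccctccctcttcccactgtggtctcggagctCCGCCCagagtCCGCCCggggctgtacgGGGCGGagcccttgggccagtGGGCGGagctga
Mertk had 3 matches to the GC box and Mfge8 had 4, whereas Stab1 had 0. The full GAGGAA matched once in Stab1, beginning 30 bases before the start, once in Mfge8, 220 bases before it, and 0 times in Mertk. Shorter strings within it were not searched. RefSeq windows matched 9 of the 10 genes, 8 of which held a GC box and 3 a GAGGAA, against 32.7% and 23.3% of all 32851 promoter windows of this length. These 2 were chosen among 8 patterns after their matches had been seen; the 6 not shown were a longer PU.1 site, AP-1 in 2 spellings, the TATA box, the CArG box and an LXR repeat, which matched 0 of the 9 windows. A match describes these letters only.

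These mouse patterns were set beside the levels of marker lists, each taken as the mean log2 CPM of its tested genes. The macrophage level was 9.05 and 9.03 in control Ab-treated mice 1 and 2 and 9.07 in anti-BAFF Ab-treated mouse 5, the mice with the highest Stab1 and Mertk levels. It lay between 8.63 and 8.86 in the other 5 mice. By the summed CPM of the same genes this split did not hold. Control Ab-treated mouse 2 was at 8852 CPM, below anti-BAFF Ab-treated mouse 8 at 8962 CPM. As the mice fell apart into sets by the mean log2 CPM, each smaller than 6 mice, no r with the macrophage level is given. The macrophage level itself was 8.85 ± 0.22 for control Ab and 8.84 ± 0.18 for anti-BAFF Ab. With this level as a covariate, the log2 fold changes were -0.10 for Mertk, 0.08 for Stab1 and 0.07 for Mfge8. In bulk RNA, fewer cells of a type and less RNA per cell cannot be told apart.

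Axl followed the endothelial level, which was lowest in control Ab-treated mouse 1 (6.61) and highest in control Ab-treated mouse 6 (7.49). Over the 8 mice, Pearson's r was 0.94 (permutation test over all pairings, two-sided, p = 0.000322, adjusted p = 0.0161) and Spearman's rho was 0.86 (permutation p = 0.0107, adjusted p = 0.178). Without the 2 mice farthest from the median endothelial level, r was 0.93, and it was 0.96 with the group means removed. Axl also had r = 0.82 with the fibroblast and preadipocyte level (permutation p = 0.00826, adjusted p = 0.103) and a rho of 0.81 (permutation p = 0.0218, adjusted p = 0.182), with r = 0.58 without the 2 farthest mice. That level was lowest in control Ab-treated mouse 1 (9.50). By the summed CPM of the same genes, mouse 1 was not lowest. It was at 15348 CPM, where the 8 mice spanned 12107 to 15351 CPM. The p-values were adjusted over 50 relations, of 10 genes with 5 marker lists. Of these 50, 3 had an adjusted p under 0.05 by Pearson's r. They were Axl with the endothelial level, and Stab1 and Mfge8 with the macrophage level (permutation adjusted p = 0.0393 for each of the latter 2). Stab1 rose with the macrophage level and Mfge8 fell. The pooled r of these 2 genes is not given because the mice formed separate sets, and the same limit holds for their p-values. By Spearman's rho 0 of the 50 passed, and the lowest adjusted p was 0.112. The gene and marker levels come from the same libraries and share their totals. Relations with the pericyte and smooth muscle level and with the mesothelial level were not computed. Both levels were also lowest in control Ab-treated mouse 1 (5.38 and 4.91).

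For Cd36 the closest relation was an inverse one with the dissociation response, 10 immediate early and heat shock genes that tissue digestion can induce. Pearson's r was -0.83 (permutation test over all pairings, two-sided, p = 0.0137, adjusted p = 0.128), Spearman's rho was -0.81 (permutation p = 0.0218, adjusted p = 0.182), and r was -0.82 without the 2 farthest mice and -0.83 with the group means removed. This relation did not pass after adjustment. The level of these genes was 9.59 ± 0.28 for control Ab and 9.35 ± 0.20 for anti-BAFF Ab, and with it as a covariate the log2 fold change of Cd36 was -0.09. Thbs1, which can also respond to serum and stress, had an r of 0.04 (permutation p = 0.929, adjusted p = 0.964) and a rho of -0.02 (permutation p = 0.977, adjusted p = 0.977) with this list, and an r of 0.44 without the 2 farthest mice. With the fibroblast and preadipocyte level, Thbs1 had an r of 0.80 (permutation p = 0.0181, adjusted p = 0.129) and a rho of 0.83 (permutation p = 0.0154, adjusted p = 0.182). As given for Axl, control Ab-treated mouse 1 was lowest in that level by mean log2 CPM but not by summed CPM. With the endothelial level its r was 0.77 (permutation p = 0.0262, adjusted p = 0.146) and its rho was 0.50 (permutation p = 0.216, adjusted p = 0.715). Neither relation passed after adjustment, and without the 2 farthest mice r was 0.44 and 0.39.

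**Figure D4:**
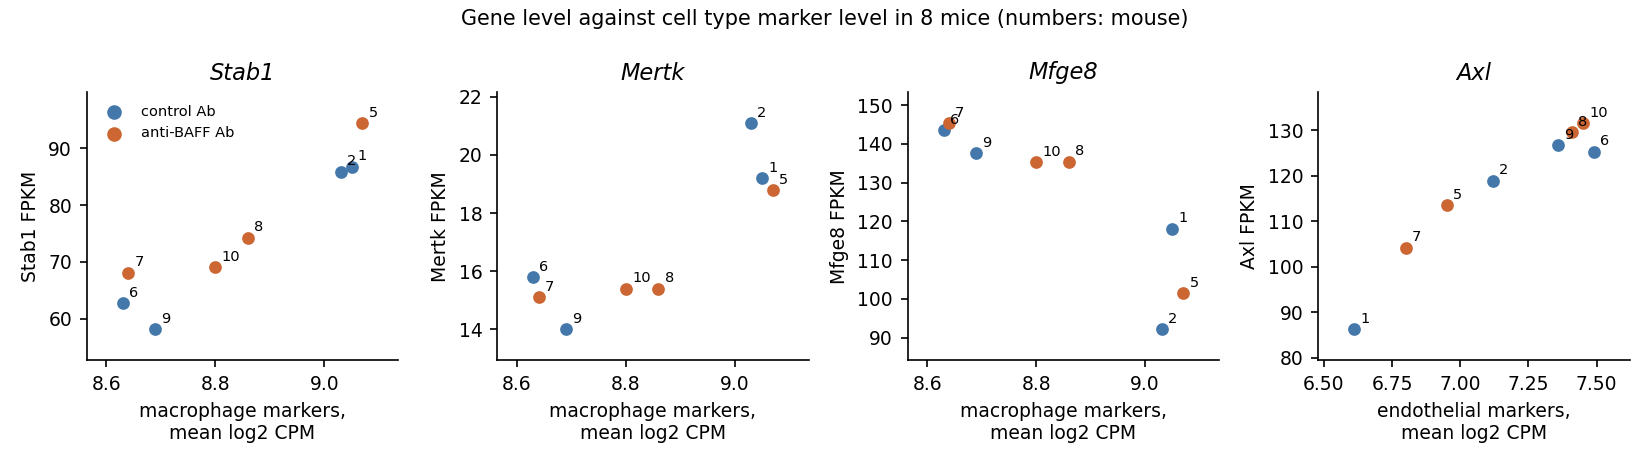
FPKM of Stab1, Mertk and Mfge8 against the macrophage marker level and of Axl against the endothelial marker level (mean log2 CPM of each list) in the 8 mice, numbered and coloured by group. Mice 1, 2 and 5 lie at the right of the macrophage panels, between 9.03 and 9.07, and Axl runs from 86.2 FPKM in mouse 1 to 132 FPKM in mouse 10.

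The genes most like each member over the 8 mice, by Pearson's r of log2 CPM among the 15963 genes tested, were Tgfbr3 (0.996), Aox3 (0.996) and Thsd7a (0.991) for Axl, Anxa7 (0.992), Tmem168 (0.986) and Nceh1 (0.985) for Cd36, and Elovl7 (0.984), Lif (0.983) and Inhba (0.98) for Thbs1. For the other 7 genes the closest were Dnajb13 (0.972) for Mertk, Rpl22 (0.987) for Tyro3, Ptprz1 (0.975) for Gas6, Ppp2r2a (0.971) for Pros1, Zmym5 (0.974) for Mfge8, Gpd1l (0.979) for Stab1 and Zfp85 (0.959) for Lrp1. These are the highest of 15963 values over 8 mice that share libraries, and they are given as a description.

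Between members, 45 relations were computed, and 0 passed 0.05 after adjustment. The lowest adjusted p was 0.141; no pooled r is given for Mertk, Stab1 and Mfge8, since the mice fell apart into sets for these genes. The r of the ligand Gas6 with its receptor Axl was 0.64 (permutation p = 0.0875, adjusted p = 0.424; rho = 0.50, permutation p = 0.216, adjusted p = 0.694) and went to -0.21 without the 2 farthest mice.

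The other genes of the uptake pathway were read from 6 lists of 78 genes, 77 of which were tested. Of the 77, edgeR called 0 after adjustment; unadjusted, 1 had a p under 0.05 in each direction (1.9% of all genes tested in either). DESeq2 called 0. Of the 17 other receptors tested, 10 had a log2 fold change above 0 and 7 below, with a median of 0.04. Cd14, a receptor for apoptotic cells and for lipopolysaccharide, was the most abundant, at 699 ± 235 FPKM with control Ab and 674 ± 286 FPKM with anti-BAFF Ab, followed by Itgb5 at 77.3 ± 2.72 and 79.6 ± 3.24 FPKM. The lowest p-values belonged to Itgav (log2 fold change 0.16, edgeR unadjusted p = 0.113), which pairs with Itgb5 in the integrin that binds MFG-E8, Cd163 (-0.36), also one of the macrophage markers, and Cd93 (0.11). The receptor Havcr1 had at most 9 counts in a mouse and was not tested.

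Among the 14 other bridging molecules and opsonins, the log2 fold changes ranged from -0.44 to 0.25 with 5 above 0, 9 below and a median of -0.03. Apoe, a lipid carrier abundant in macrophages, was at 2351 ± 445 FPKM and 2187 ± 146 FPKM, and the complement protein C3 at 1883 ± 251 and 1652 ± 251 FPKM. Both were above every one of the 10 members, including Cd36. C3 (log2 fold change -0.19, 95% interval -0.54 to 0.16), Anxa5 (0.09), which covers exposed phosphatidylserine, and Edil3 (-0.44, with 1 to 15 counts per mouse) had the lowest p-values of the list.

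The 12 signals that attract or restrain phagocytes, 7 above 0 and 5 below, included the gene with the lowest p of all 6 lists. Siglecg, an inhibitory lectin of B cells, was at 0.985 ± 0.117 FPKM with control Ab and 0.600 ± 0.101 FPKM with anti-BAFF Ab, and its groups did not overlap. The log2 fold change was -0.71 (standard error 0.19, 95% interval -1.14 to -0.29, unadjusted p = 0.00416, edgeR adjusted p = 1.0). B cell markers were lower in the same mice, and their part in the Siglecg values was not tested. P2ry2, a receptor for nucleotides released by dying cells, had a log2 fold change of 0.36 (95% interval -0.12 to 0.85), Cd24a one of -0.18, Sirpa (the receptor for the restraint signal CD47) one of 0.09 and S1pr1 one of 0.03.

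The 12 genes of the engulfment machinery had log2 fold changes between -0.04 and 0.19, with 9 above 0 and 3 below. The GTPase genes Rac1 (82.4 ± 5.36 and 84.4 ± 5.04 FPKM) and Rac2 (46.0 ± 14.7 and 48.2 ± 4.53 FPKM) were the most abundant, and Xkr8, a scramblase that exposes phosphatidylserine, had a log2 fold change of 0.19, Crk one of 0.11 and Dock1 one of -0.04. The 18 genes of degradation and lipid handling lay between -0.10 and 0.17, with 13 above 0 and 5 below. The lysosomal proteases Ctsb (995 ± 220.0 and 1052 ± 32.7 FPKM) and Ctsd (956 ± 296 and 981 ± 89.9 FPKM) led this list in level. The nuclear receptor Nr1h3 (LXR alpha), an activator of Mertk transcription, had a log2 fold change of 0.17 (95% interval -0.06 to 0.41), Pparg one of -0.10 and the lysosomal cholesterol transporter Npc1 one of 0.11.

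Proteins that cut TAM receptors from the cell surface, or restrain that cutting, formed the last list of 4 genes. Adam17, the protease that sheds MERTK, was at 20.9 ± 3.4 FPKM and 23.3 ± 0.692 FPKM, with a log2 fold change of 0.15 (95% interval -0.10 to 0.41). Timp1, an inhibitor of metalloproteases, was at 76.7 ± 14.9 and 107 ± 29.8 FPKM, with a log2 fold change of 0.48 (95% interval 0.01 to 0.94, unadjusted p = 0.0446, edgeR adjusted p = 1.0), and its groups overlapped. Adam10 (0.04) and Timp3 (0.06), the inhibitor of ADAM17, completed the list.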

How the data were processed

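Bulk RNA sequencing of the SVF was analysed for 8 mice, grouped by the treatment in their labels. From paired-end NovaSeq libraries, the authors deposited a table of raw counts; the genome build is mm10 per the submitters' processing notes, and the aligner, the counting tool and the annotation are not given in the sources used here. The gene length column, an other value in bases that the authors deposited with the counts, was used for FPKM. The methods name FPKM fold changes and an adjusted p below 0.05; as the deposited values are counts, they went into edgeR 4.0.16 under R 4.3.3 (filterByExpr, minimum count 10, TMM, quasi-likelihood test, treatment as the only term), with Benjamini-Hochberg adjustment over 15963 genes. Standard errors came from the F statistic and 95% intervals from the test's degrees of freedom. The pipeline was tested on 3 simulated data sets with 200 genes changed by a log2 fold change of 2, of which a median of 86% were called. Changes as small as those of the members were not simulated. FPKM and CPM use TMM-scaled library sizes, and log2 CPM a prior count of 2. The replicates are single mice, and no 2 libraries of a group agreed within sampling noise. Chi-square per degree of freedom was 7.91 at the smallest and 77.3 at the largest (control Ab-treated mice 1 and 9). Correlations used all 40320 pairings of 8 mice (Python 3.11.15, numpy 2.4.6). The genes named are the 10 members, from each pathway list the 3 with the lowest p and the 2 with the highest FPKM, and the genes most correlated with each member. The members and lists were chosen with earlier results of these data known. The alternatives covered normalization (library size alone, RLE, upper quartile), filters, DESeq2 1.42.0, limma 3.58.1 on log2(FPKM + 1), the robust option, 2 covariates and leaving out mice; leaving out mice 2 and 7 together was chosen after seeing the data.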

Additional observations from a re-analysis of the deposited data

Results flagged for a closer look

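In 3 of 20 groups of 4 mice, 1 mouse lay farther from its nearest neighbour than Dixon's 95% limit allows for the range of the group, where chance gives about 1. Mertk was at 18.8 FPKM in anti-BAFF Ab-treated mouse 5, while the other 3 mice of its group lay between 15.1 and 15.4 FPKM. Tyro3 was at 0.518 FPKM in anti-BAFF Ab-treated mouse 7, against 0.747 to 0.769 FPKM in the others. Cd36 was at 1086 FPKM in control Ab-treated mouse 1, against 685 to 715 FPKM in the others.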

How the results depend on the processing

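The count of members past an adjusted p of 0.05 was 0 under every alternative run, and so was the count for each of the 6 pathway lists where DESeq2 or leaving out mice was run. Of 110 log2 fold changes of the 10 genes under alternatives other than leaving out 1 mouse, 104 kept their direction and 6 changed sign. With the dissociation response as a covariate these were Gas6 (0.0257), Mfge8 (-0.0662) and Cd36 (-0.0919), and without mice 2 and 7 Tyro3 (0.0216), Gas6 (0.0034) and Mfge8 (-0.1219). Leaving out 1 mouse changed the sign of 6 of 80 values, to as low as -0.0646 for Axl (without mouse 1), -0.0408 for Mfge8 (without mouse 2) and -0.0728 for Stab1 (without mouse 5), where the highest values were 0.12, 0.16 and 0.14. For the other genes the values with 1 mouse left out ranged from -0.21 to -0.02 for Mertk, -0.40 to -0.08 for Tyro3, -0.19 to -0.02 for Gas6, 0.07 to 0.16 for Pros1, 0.04 to 0.28 for Cd36, 0.03 to 0.09 for Lrp1 and 0.12 to 0.39 for Thbs1. The causes of these changes were not tested. Over all genes, 9 were called, and 19 without a filter on low counts, 70 with DESeq2 (66 lower, 4 higher), 2 with the robust option, 2 with macrophage markers as a covariate, 3 without mice 2 and 7, and 2 to 9 with 1 mouse left out. The mean Tyro3 share of the TAM receptors was 0.566% per length and 0.709% from counts not divided by length. No paired analysis was possible because the groups share no mouse number. Of the members, Tyro3 had the fewest counts (44 to 112 per mouse) and the widest interval.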

Other observations

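Marker levels of further cell types varied between mice of the same group. Red cell markers (5 genes) summed to between 108 and 430 CPM with control Ab and between 108 and 468 CPM with anti-BAFF Ab. Mesothelial markers (6 genes) summed to 219 to 614 CPM and 336 to 444 CPM, and pericyte and smooth muscle markers (6 genes) to 458 to 1196 CPM and 698 to 935 CPM. Control Ab-treated mouse 1 held the lowest mesothelial, pericyte and endothelial sums of the 8 mice and the highest macrophage sum. Among the pathway genes, Cd14 varied widely in level, from 353 to 869.5 FPKM with control Ab and from 305 to 1003 FPKM with anti-BAFF Ab, with a log2 fold change of -0.05 (95% interval -0.88 to 0.78). These values were chosen after they had been seen.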
